A study of Drosophila melanogaster with 4 samples.

Results

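The dosage compensation machinery of Drosophila melanogaster was examined in whole wandering larvae of the third instar. Its 9 genes were taken by symbol from the 12116 genes with FPKM values: the noncoding RNAs lncRNA:roX1 and lncRNA:roX2, the MSL complex genes msl-1, msl-2, msl-3, mle and mof, the female switch gene Sxl, and the recruitment factor gene Clamp. All 9 were found, with 31 listed transcripts. The mutant larvae were homozygous for hsromega[66] (hsromega66 below), an allele of the long noncoding RNA gene Hsromega, and the control larvae were of the wild-type stock Oregon R+. Each genotype had 2 total RNA libraries, each from 5 pooled larvae. The labels do not give the sex of the larvae. FPKM (fragments scaled to transcript length and to the mapped fragments of the library) is a level per length. Each transcript has 1 pooled value per genotype, so no spread between libraries can be given. Separate cultures are not named in the labels, and the spread behind the deposited p-values may be technical alone.

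Fly males carry a single X chromosome and raise its transcription to match the paired X chromosomes of females. The MSL complex does this by binding the male X and acetylating histone H4 there, and the roX RNAs are structural parts of it. In females the RNA-binding protein Sex-lethal (Sxl) blocks both splicing and translation of the msl-2 message, so that the complex does not form. The roX RNAs, the male-spliced messages of Sxl, msl-2 and dsx, and testis messages are therefore also readouts of how much male tissue a mixed sample holds.

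Hsromega itself was listed at 0.290 FPKM in hsromega66 and 232 FPKM in control larvae, yet its lowest q-value in the authors' deposited table was 0.998. The salivary glue gene Sgs3 (416 FPKM in hsromega66 and 863 FPKM in control larvae) and the larval serum gene Lsp2 (731 FPKM in hsromega66 and 723 FPKM in control larvae) marked both samples as late larvae. Over all genes, 280 of 12116 (2.31%) had at least 1 transcript with a q-value of at most 0.05 in the authors' deposited table, and a gene is said to rise or fall only by that rule. The rule thus does not call the mutated gene itself, and a gene that it does not call may still differ. A log2 ratio below is log2(FPKM + 1) in hsromega66 minus the same in control, taken on gene totals over all transcripts listed; this scale understates changes of low genes.

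None of the 9 dosage compensation genes was called as risen or fallen by the deposited q-value, which also leaves Hsromega uncalled. In the authors' deposited Cuffdiff table, 0 of their 31 transcripts had a q-value of at most 0.05, against 1.31% of all transcripts, and 0 had an unadjusted p-value of at most 0.05, against 4.5% of all transcripts. By gene, 0 of 9 were called against a background of 2.31%, and 0 of 9 had such an unadjusted p-value against 7.82% of all genes. With backgrounds this low, a count of 0 among 9 genes is near the background and is not particular to them. The lowest p-value among the 31 in the authors' deposited table was 0.114, and the lowest q-value was 0.998. The 9 log2 ratios ran from -0.29 for mle to 0.34 for mof, with 5 above 0 and 4 below; 48.2% of all genes, and 49.7% of genes with at least 4 FPKM in 1 genotype, lay above 0. Their median was 0.090, beside -0.013 over all genes. None of the 9 reached an absolute log2 ratio of 0.5. Of the 8849 genes with at least 4 FPKM in 1 genotype, 17.2% did, and a count of 0 among only 9 genes does not set them apart from that share. With 1 pooled value per genotype, a difference smaller than the unseen spread between libraries cannot be recognised, so these values do not show that the levels are equal.

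**Figure D1:**
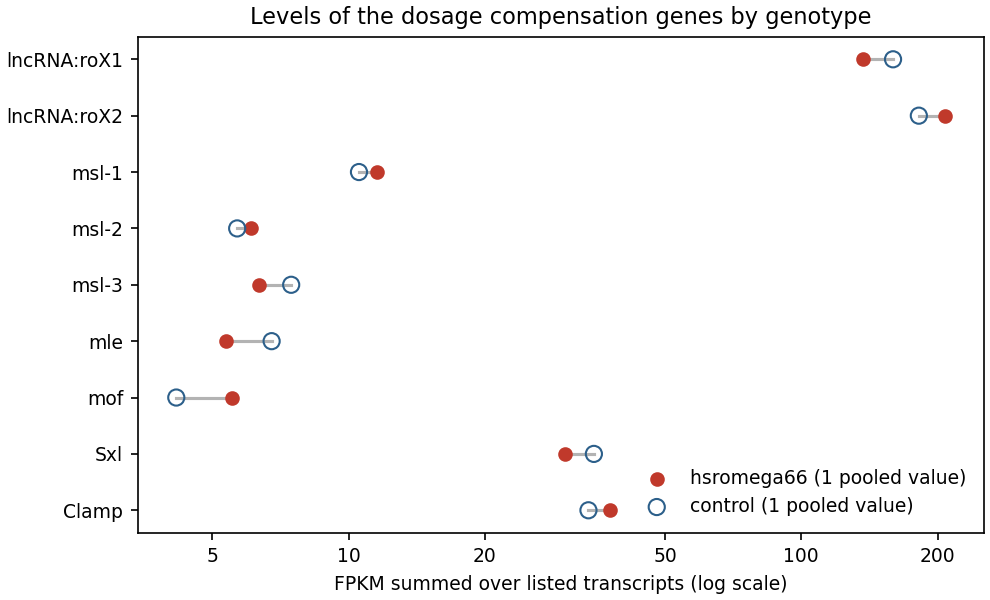
Level of each dosage compensation gene (x axis, FPKM summed over its listed transcripts, log scale) in hsromega66 larvae (filled) and control larvae (open), 1 pooled value each. The roX RNAs lie farthest right, with roX2 at 208 FPKM in hsromega66 and 182 FPKM in control larvae, and the 5 MSL protein genes lie at 11.5 FPKM or less in both genotypes.

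The roX RNAs were the most abundant of the 9 genes. lncRNA:roX2 (FBgn0019660, plus strand of X, 11579065 to 11580432, dm6) was listed at 208 FPKM in hsromega66 and 182 FPKM in control larvae, a log2 ratio of 0.19. lncRNA:roX1 (FBgn0019661, minus strand of X, 3857230 to 3862697) was listed at 137 FPKM in hsromega66 and 159 FPKM in control larvae, a log2 ratio of -0.22. Both genes produce spliced and unspliced noncoding RNAs that spread along the male X with the MSL proteins and can substitute for each other. The roX2 value was thus the higher and the roX1 value the lower one in hsromega66, and their sum was 345 FPKM in hsromega66 and 341 FPKM in control larvae. The ratio of roX2 to roX1 was 1.52 in hsromega66 and 1.14 in control larvae. Among all genes the roX2 level stood at percentile 96.0 in hsromega66 and 95.4 in control larvae, and the roX1 level at percentile 94.4 in hsromega66 and 94.9 in control larvae.

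The roX2 signal came mostly from a single RNA. The transcript matched to roX2-RA, which has 2 exons, a length of 562 nucleotides and an intron of 545 nucleotides, stood at 186 FPKM in hsromega66 and 162 FPKM in control larvae. It held 89.2% of the summed roX2 level in hsromega66 and 89.0% in control larvae. The unspliced form roX2-RB, of 1368 nucleotides, stood at 2.71 FPKM in hsromega66 and 3.97 FPKM in control larvae. The spliced major form thus held the same share to within 1 percentage point in both genotypes. The multiply spliced roX2-RE followed at 11.0 FPKM in hsromega66 and 7.17 FPKM in control larvae, and the other 4 listed roX2 transcripts lay below 4 FPKM in both.

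The roX1 signal was divided between an unspliced and a spliced RNA. The main transcript matched to roX1-RC, a single exon of 4421 nucleotides, stood at 66.1 FPKM in hsromega66 and 98.5 FPKM in control larvae. Its log2 ratio was -0.57, and its p-value in the authors' deposited table was 0.214. The transcript matched to roX1-RB, from which an intron of 70 nucleotides (X, 3861951 to 3862020) is removed, stood at 62.3 FPKM in hsromega66 and 55.7 FPKM in control larvae. The unspliced roX1-RE, a single exon of 4832 nucleotides, stood at 2.28 FPKM in hsromega66 and 0.549 FPKM in control larvae. The lower summed roX1 level in the mutant therefore lay in the transcripts matched to roX1-RC. The spliced form roX1-RB held 45.4% of the roX1 level in hsromega66 and 34.9% in control larvae. These forms overlap, and the division of reads among them is the authors' estimate.

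Another 2 transcripts matched to roX1-RC were listed in 1 genotype each. The first stood at 6.45 FPKM in hsromega66 larvae and was listed at 0 in control larvae, and the second was listed at 0 in hsromega66 larvae and stood at 4.80 FPKM in control larvae. The authors' deposited table classes the first as specific to the treated and the second as specific to the control larvae, with p-values of 0.114 for the first and 0.181 for the second. Both share their annotated match with the main transcript, so how the reads were divided among the 3 is uncertain. Summed over them, roX1-RC stood at 72.5 FPKM in hsromega66 and 103 FPKM in control larvae.

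**Figure D2:**
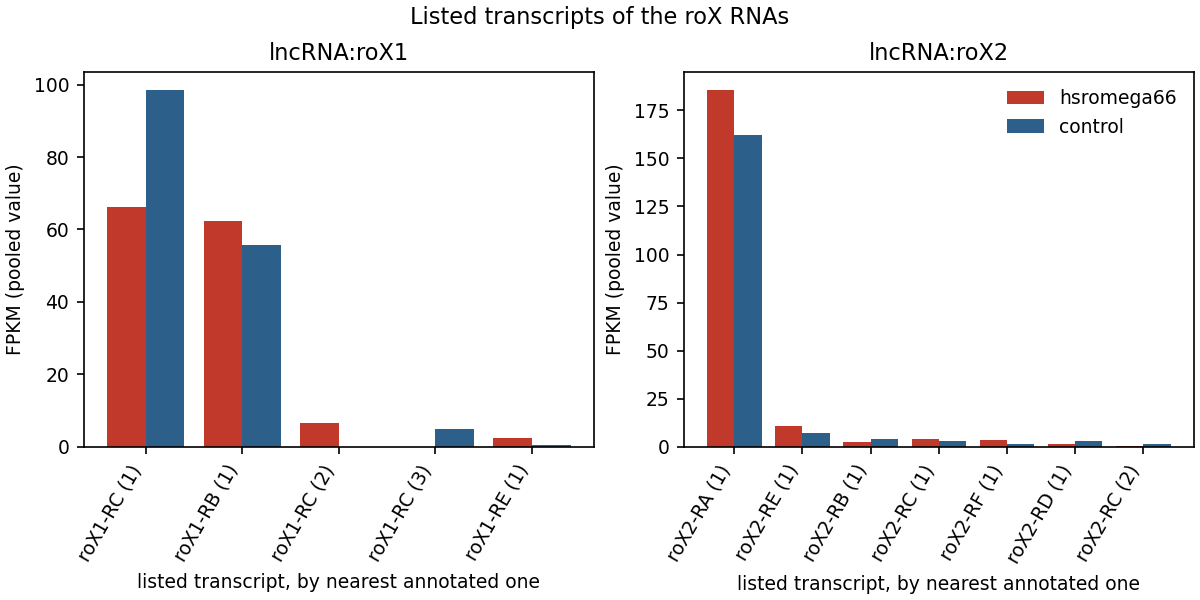
Pooled FPKM (y axis) of every listed transcript of lncRNA:roX1 (left) and lncRNA:roX2 (right) in hsromega66 (red) and control larvae (blue), named by the nearest annotated transcript, numbered in brackets within each match. Most roX2 signal is roX2-RA in both genotypes, while roX1 is divided between roX1-RC, at 66.1 FPKM in hsromega66 and 98.5 FPKM in control larvae, and roX1-RB.

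The surroundings of the roX genes, where the MSL complex first binds the X, were examined as well. Within 100 kb lay 12 genes with at least 1 FPKM around roX1 and 24 around roX2. Of these, 0 rose and 0 fell by the deposited Cuffdiff q-value. Among all X-linked genes with at least 1 FPKM, 1.55% were called. Counts of 0 among so few genes are near that share and not particular to these places. The median log2 ratio was -0.086 around roX1 and -0.0033 around roX2. The gene ec, on the opposite strand, overlaps the 3′ end of roX1 and stood at 12.4 FPKM in hsromega66 and 12.1 FPKM in control larvae. The nearest gene on the other side of roX1, yin, lies 268 bp away and stood at 60.7 FPKM in hsromega66 and 44.9 FPKM in control larvae. CG2901, 25683 bp from roX1, stood at 1.28 FPKM in hsromega66 and 2.07 FPKM in control larvae. roX2 lies between CG11695, 258 bp away and listed at 4.73 FPKM in hsromega66 and 3.85 FPKM in control larvae, and the kinesin-like gene nod, 339 bp away and listed at 1.96 FPKM in hsromega66 and 2.23 FPKM in control larvae. The libraries were stranded, but no source used here states if fragments were assigned by strand. It is thus not known if reads from ec and roX1 were kept apart where they overlap.

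The 5 protein genes of the MSL complex were low and close to one another. They lay between 5.37 and 11.5 FPKM in hsromega66 larvae and between 4.16 and 10.5 FPKM in control larvae, and summed to 34.9 FPKM in hsromega66 and 34.6 FPKM in control larvae. msl-1 (FBgn0005617, minus strand of 2L, 18683720 to 18688800), which encodes the scaffold of the complex, was the highest of them at 11.5 FPKM in hsromega66 and 10.5 FPKM in control larvae. msl-3 (FBgn0002775, minus strand of 3L, 7123213 to 7125533), whose chromodomain protein recognises marked active genes, stood at 6.34 FPKM in hsromega66 and 7.46 FPKM in control larvae. The log2 ratios were 0.12 for msl-1 and -0.21 for msl-3. The 3′ end of msl-3 overlaps form3 on the opposite strand, which was listed at 5.69 FPKM in hsromega66 and 4.55 FPKM in control larvae.

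The helicase gene mle had the lowest and the acetyltransferase gene mof the highest ratio of the 9 genes. mof (FBgn0014340, minus strand of X, 5873840 to 5876853) encodes the histone acetyltransferase and was listed at 5.53 FPKM in hsromega66 and 4.16 FPKM in control larvae, with a p-value of 0.211 in the authors' deposited table. mle (FBgn0002774, minus strand of 2R, 5974857 to 5980778) encodes the RNA helicase that remodels the roX RNAs and was listed at 5.37 FPKM in hsromega66 and 6.76 FPKM in control larvae. Its longer coding form, mle-RA with 3879 coding nucleotides, stood at 3.27 FPKM in hsromega66 and 4.60 FPKM in control larvae, with a p-value of 0.254 in the authors' deposited table. The shorter form mle-RC, with 2808 coding nucleotides, stood at 2.09 FPKM in hsromega66 and 2.16 FPKM in control larvae. As listed, the difference in mle lay mostly in the long form, but the division of reads between the overlapping forms is the authors' estimate. Neither mof nor mle passed the threshold.

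Clamp (FBgn0032979, minus strand of 2L, 22165720 to 22169143) encodes the zinc finger protein that binds GA-rich sites on the X and helps to recruit the complex in males, and it acts at other loci in both sexes. It was listed at 37.7 FPKM in hsromega66 and 33.9 FPKM in control larvae, a log2 ratio of 0.15. The form Clamp-RA held 86.7% of this level in hsromega66 and 84.6% in control larvae. The Clamp level was 6.18 times that of msl-2 in hsromega66 and 5.97 times in control larvae. CG42748, on the opposite strand, overlaps the 3′ end of Clamp and stood at 26.0 FPKM in hsromega66 and 25.3 FPKM in control larvae.

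By level, the order in hsromega66 larvae was roX2, roX1, Clamp, Sxl, msl-1, msl-3, msl-2, mof and mle. In control larvae it was roX2, roX1, Sxl, Clamp, msl-1, msl-3, mle, msl-2 and mof. The orders differed in the places of Clamp and Sxl, and of mle beside msl-2 and mof. With no spread between libraries it cannot be said which neighbours in either order differ beyond replicate error.

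The sex-specific splicing of 4 genes was then read as a check on the sex of the larvae. Both genotypes showed a male and a female form of Sxl, msl-2 and dsx, and of tra the female form and the form made in both sexes. Sxl (FBgn0264270, minus strand of X, 7074550 to 7098053) includes in males an exon with a stop codon, and in females skips it and makes the full protein. In the annotation this exon spans X, 7088578 to 7088767 (190 nucleotides), and the transcripts that hold it have a coding length of 126 or 144 nucleotides. Of the 9 listed Sxl transcripts, 4 held the male exon and 5 did not. The 4 male-type transcripts summed to 12.5 FPKM in hsromega66 and 15.8 FPKM in control larvae. The 5 female-type transcripts summed to 17.6 FPKM in hsromega66 and 19.0 FPKM in control larvae. The male type held 41.4% of the Sxl level in hsromega66 and 45.5% in control larvae.

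Single Sxl transcripts varied in both directions. The highest in both genotypes was the female-type Sxl-RW, at 10.1 FPKM in hsromega66 and 8.95 FPKM in control larvae. Among the female-type forms, Sxl-RD stood at 4.22 FPKM in hsromega66 and 6.20 FPKM in control larvae, and Sxl-RY, with the longest reading frame of the listed forms, at 2.12 FPKM in hsromega66 and 1.08 FPKM in control larvae. The more abundant of the male-type transcripts matched to Sxl-RM stood at 4.49 FPKM in hsromega66 and 5.88 FPKM in control larvae. The male-type form Sxl-RAA stood at 2.27 FPKM in hsromega66 and 4.36 FPKM in control larvae. Within each type some transcripts were higher and others lower in the mutant, and the lowest p-value of any Sxl transcript in the authors' deposited table was 0.509. The summed Sxl level was 30.1 FPKM in hsromega66 and 34.8 FPKM in control larvae, a log2 ratio of -0.21, which was 0.16 for its most abundant transcript alone.

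**Figure D3:**
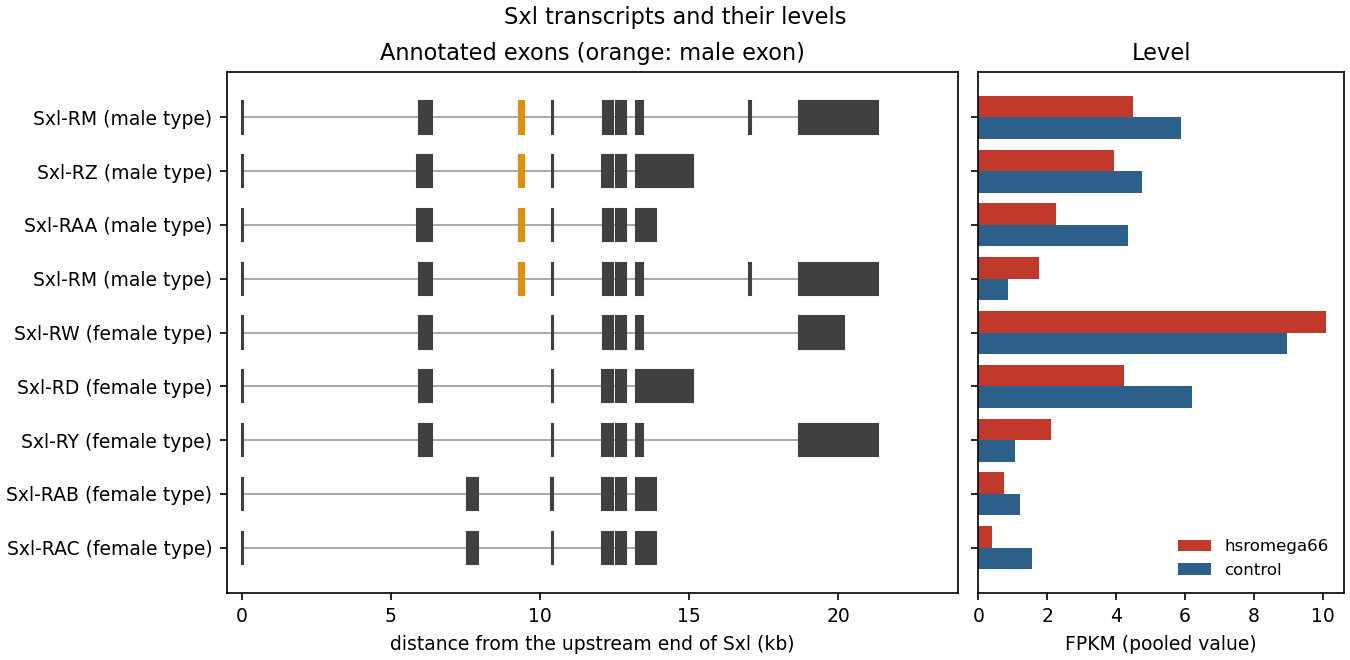
Annotated exons of the 9 listed Sxl transcripts (left, x axis: distance in kb from the upstream end of the gene, male exon in orange) and their pooled FPKM (right) in hsromega66 (red) and control larvae (blue). Both genotypes have signal in the 4 transcripts with the male exon and in the 5 without it, and female-type Sxl-RW is the highest at 10.1 FPKM in hsromega66 and 8.95 FPKM in control larvae.

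msl-2 (FBgn0005616, minus strand of 2L, 3462218 to 3466112) encodes the RING finger protein whose absence keeps the complex from forming in females. Its total was 6.10 FPKM in hsromega66 and 5.67 FPKM in control larvae, a log2 ratio of 0.090. The annotation gives it an intron of 133 nucleotides in the leader (2L, 3465919 to 3466051), which males remove and which Sxl keeps in the message in females. The spliced male-type form msl-2-RB stood at 3.47 FPKM in hsromega66 and 3.95 FPKM in control larvae. The female-type form msl-2-RA, with the intron kept, stood at 2.63 FPKM in hsromega66 and 1.72 FPKM in control larvae. The male type thus held 56.8% of the msl-2 level in hsromega66 and 69.7% in control larvae, and the p-values in the authors' deposited table were 0.800 for msl-2-RB and 0.641 for msl-2-RA. Both forms have the same reading frame of 2319 nucleotides. The libraries were made from total RNA, so an intron kept in the message and RNA not yet spliced cannot be told apart here.

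The targets of Sxl in the other branch of the pathway were read in the same way. tra, whose full protein is made from a female splice, was listed at 6.12 FPKM in hsromega66 and 5.82 FPKM in control larvae. The female form tra-RA, with a reading frame of 591 nucleotides, stood at 1.96 FPKM in hsromega66 and 3.73 FPKM in control larvae. The form tra-RB keeps a further 175 nucleotides with an early stop, is made in both sexes, and stood at 4.16 FPKM in hsromega66 and 2.09 FPKM in control larvae. Its share was 68.0% in hsromega66 and 35.9% in control larvae, the widest difference of the 4 genes, with p-values of 0.349 for tra-RB and 0.510 for tra-RA in the authors' deposited table. dsx, the last switch of the pathway, was represented by its male form dsx-RE at 1.55 FPKM in hsromega66 and 1.46 FPKM in control larvae. The female form dsx-RF stood at 1.56 FPKM in hsromega66 and 1.81 FPKM in control larvae, so both forms were near the same level. The male form held 49.8% of the dsx level in hsromega66 and 44.7% in control larvae, with a lowest p-value of 0.838 in the authors' deposited table.

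The differences of the 4 genes did not have the same sign. As hsromega66 minus control, the difference in the male-type share was -4.01 percentage points for Sxl and -12.9 for msl-2, and 32.0 for tra (its non-sex-specific form) and 5.14 for dsx. All of these forms were low, each below 11 FPKM, and the division of reads among forms that share most of their exons is the authors' estimate, whose error is not in the values used here. The shares are therefore descriptions of the pooled samples and not measures of the number of male larvae.

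Other male and female markers were set beside these values. Of 30 spermatocyte genes of the larval testis, 28 were listed and 0 rose or fell. Of the 28, 0 had an unadjusted p-value of at most 0.05 in the authors' deposited Cuffdiff table. Among all genes, 2.31% were called and 7.82% had such a p-value, and counts of 0 among 28 do not set the list apart. The spermatocyte genes summed to 535 FPKM in hsromega66 and 572 FPKM in control larvae. Their median log2 ratio was -0.054, with 10 above 0 and 18 below. The highest were sperm protein genes: Mst87F at 96.1 FPKM in hsromega66 and 98.0 FPKM in control larvae, Mst84Da at 75.7 FPKM in hsromega66 and 88.1 FPKM in control larvae, Mst84Db at 62.2 FPKM in hsromega66 and 62.3 FPKM in control larvae, and Mst84Dd at 42.9 FPKM in hsromega66 and 53.4 FPKM in control larvae. Messages of the male germline were thus listed in both pooled samples. In bulk samples such as these, fewer cells of a type and less RNA per cell cannot be told apart.

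Of 12 Y-linked genes looked for, 2 were in the values used. FDY stood at 1.86 FPKM in hsromega66 and 0.684 FPKM in control larvae, and ARY at 1.00 FPKM in hsromega66 and 1.86 FPKM in control larvae. All 11 genes placed on the Y in the table were low, between 0.694 and 3.60 FPKM in hsromega66 larvae and between 0.327 and 2.30 FPKM in control larvae. Of these, 9 lay above 0 and 2 below, with a median log2 ratio of 0.68, and 0 passed the deposited Cuffdiff q threshold while 2 had an unadjusted p-value of at most 0.05 in that table. Among all genes, 48.2% lay above 0, 2.31% were called and 7.82% had such a p-value. The counts among these 11 genes were not tested against those shares. They were made over the whole Y after the values were seen. The 11 include 6 Su(Ste) entries, repeats that silence the Stellate genes in testis, and Mst77Y-7, which has near-identical relatives, so the division of their reads is uncertain.

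Among 9 genes of the female germline and yolk, 4 were listed and 1 rose, beside 2.31% of all genes called. The germline genes osk, otu and bcd and the yolk protein genes Yp1 and Yp2 were not in the values used. Yp3, a yolk protein gene that adult females transcribe in fat body and ovary, stood at 81.0 FPKM in hsromega66 and 19.9 FPKM in control larvae, a log2 ratio of 1.97, and its q-value in the authors' deposited table was 0.00546. The genes ovo (8.05 FPKM in hsromega66 and 7.48 FPKM in control larvae), grk (9.90 FPKM in hsromega66 and 10.01 FPKM in control larvae) and orb (2.28 FPKM in hsromega66 and 2.97 FPKM in control larvae) did not pass. Yp3 alone among the genes of these lists passed the threshold, and the part of the sex of the larvae in its change was not tested.

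Genes that work with the MSL complex were also examined. Of 16 cofactors and chromatin partners, 0 rose or fell and 0 had an unadjusted p-value of at most 0.05 in the authors' deposited Cuffdiff table. Beside the 2.31% of all genes called and the 7.82% with such a p-value, counts of 0 among 16 are not particular to this list. The list's median log2 ratio was -0.10, beside -0.013 over all genes, with 4 above 0 and 12 below. The highest were Nurf-38, a subunit of the NURF remodeller, at 113 FPKM in hsromega66 and 136 FPKM in control larvae, and the gene of the heterochromatin protein HP1a at 104 FPKM in hsromega66 and 116 FPKM in control larvae. Caf1-55, a histone-binding subunit of several complexes, stood at 47.9 FPKM in hsromega66 and 53.2 FPKM in control larvae, and the topoisomerase gene Top2 at 31.4 FPKM in hsromega66 and 33.8 FPKM in control larvae. Iswi, the remodelling ATPase known to bind Hsromega RNA and to maintain the male X, stood at 16.3 FPKM in hsromega66 and 18.02 FPKM in control larvae; it was named after its value was seen. The 16 ratios lay between -0.26 and 0.11.

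The NSL complex holds mof at promoters on all chromosomes in both sexes. Of 5 genes chosen from this complex, 0 were called and 0 had an unadjusted p-value of at most 0.05 in the authors' deposited Cuffdiff table. With 2.31% of all genes called and 7.82% at such a p-value, counts of 0 among 5 are near the background. Rcd1 stood at 15.2 FPKM in hsromega66 and 14.4 FPKM in control larvae, wds at 14.1 FPKM in hsromega66 and 14.6 FPKM in control larvae, nsl1 at 12.1 FPKM in hsromega66 and 9.50 FPKM in control larvae, and Rcd5 at 10.6 FPKM in hsromega66 and 9.26 FPKM in control larvae. The list's median log2 ratio was 0.069. Each of these 4 levels lay above that of mof itself in both genotypes.

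Regulators upstream of Sxl, which count the X chromosomes or splice the Sxl message, were listed for 14 of 16 genes. Of the 14, 0 were called and 0 had an unadjusted p-value of at most 0.05 in the authors' deposited Cuffdiff table. The shares of all genes were 2.31% called and 7.82% at such a p-value, so counts of 0 among 14 are not particular to these regulators. Their median log2 ratio was 0.012. By the sum over both genotypes the highest were emc, whose product restrains the X-counting factors, at 53.7 FPKM in hsromega66 and 64.7 FPKM in control larvae, and the splicing factor gene snf at 55.2 FPKM in hsromega66 and 57.7 FPKM in control larvae. Ythdc1, the reader of methylated Sxl RNA, stood at 22.3 FPKM in hsromega66 and 21.4 FPKM in control larvae, and the splicing regulator gene fl(2)d at 21.9 FPKM in hsromega66 and 20.8 FPKM in control larvae. The X-counting gene sisA, named after its value was seen, was the most extreme at 0.0588 FPKM in hsromega66 and 3.77 FPKM in control larvae, with a p-value of 0.253 in the authors' deposited table.

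Downstream of Sxl, 0 of 5 sex determination genes were called and 0 had an unadjusted p-value of at most 0.05 in the authors' deposited Cuffdiff table. For so few genes these counts are near the background of 2.31% of all genes called and 7.82% at such a p-value. The median log2 ratio of the 5 was 0.062. tra2, the splicing partner of tra, stood at 18.6 FPKM in hsromega66 and 14.7 FPKM in control larvae, and ix, the partner of the female dsx protein, at 14.5 FPKM in hsromega66 and 14.0 FPKM in control larvae. fru, which directs male courtship circuits, stood at 8.75 FPKM in hsromega66 and 5.62 FPKM in control larvae, the widest ratio of the 5 at 0.56.

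**Figure D4:**
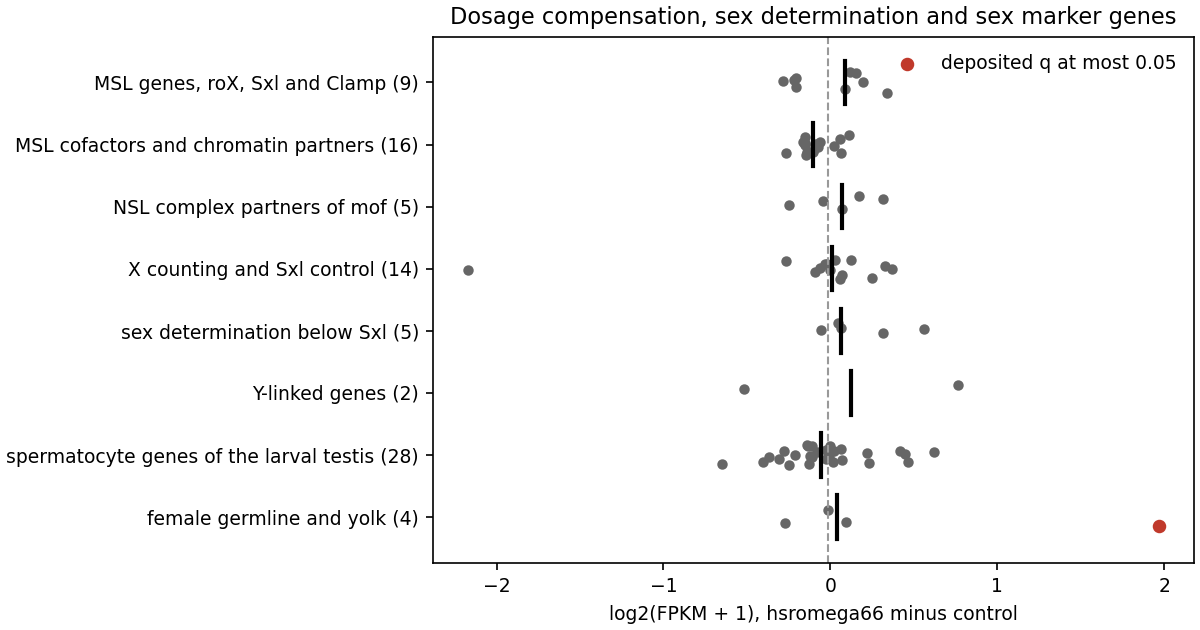
Log2(FPKM + 1) of hsromega66 minus control (x axis) for each listed gene (points) of the dosage compensation genes and 7 related lists, with the number listed in brackets; thick bars are list medians and the dashed line is the median of all genes. Yp3 at 1.97 is the only point past the deposited q threshold, and sisA lies lowest.

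Output of the X chromosome was compared with that of the autosomes, because the complex acts on the X in males. Among genes with at least 1 FPKM in 1 genotype, the median level of 1802 X-linked genes was 9.40 FPKM in hsromega66 and 8.60 FPKM in control larvae. The median level of 9691 genes on the major autosomal arms was 9.80 FPKM in both genotypes. The ratio of the X to the autosomal median was 0.959 in hsromega66 and 0.877 in control larvae. In the log2 ratio the X median was 0.040 and the autosomal median -0.020, a difference of 0.061. Of the X-linked genes 56.2% lay above 0, against 47.0% of the autosomal genes.

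The medians of the 4 autosomal arms lay between -0.030 for 2L and -0.011 for 3L, and the 83 genes of chromosome 4 had a median of -0.11. The X median thus lay above that of every autosomal arm. Single genes had quartiles of -0.15 and 0.23 on the X and of -0.21 and 0.18 on the autosomal arms. On the X, 18 genes rose and 10 fell, 1.55% of those examined, against 150 that rose and 95 that fell on the autosomal arms, or 2.53%. Genes are not replicates, so the X and autosomal medians were not tested against each other, and whether separate libraries would show the same X median was not tested.

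**Figure D5:**
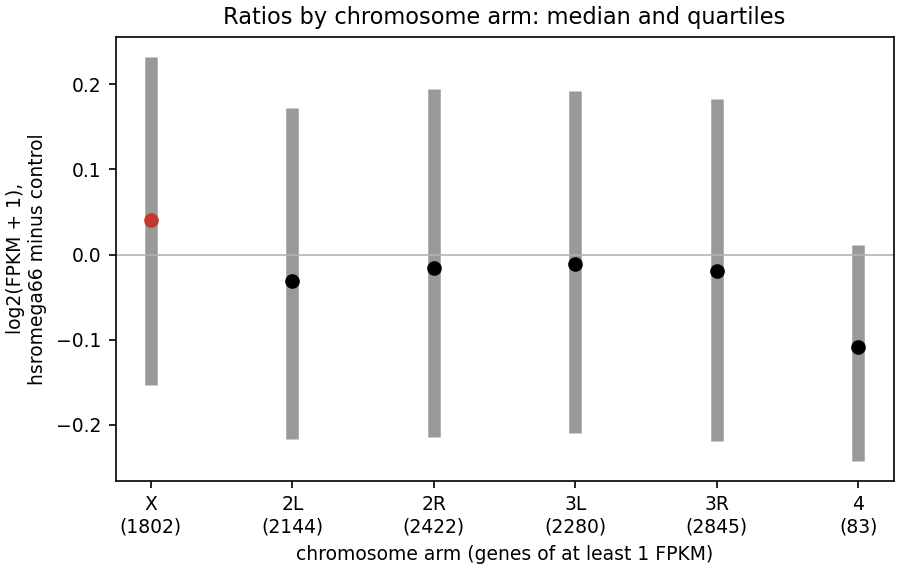
Median (points) and quartiles (bars) of log2(FPKM + 1) of hsromega66 minus control (y axis) for genes of at least 1 FPKM on each chromosome arm, with the number of genes in brackets. The X median, 0.040, lies above those of the 4 major autosomal arms, and chromosome 4 lies lowest at -0.11; the Y, with 8 such genes, is not drawn.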

How the data were processed

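Total RNA from whole larvae was depleted of ribosomal RNA, made into stranded libraries and sequenced as paired reads of 100 bp, per the labels' protocols. The aligners TopHat and Bowtie, the assembler Cufflinks, the tester Cuffdiff 2.1.1 and the build dm6 are named per the submitters' processing notes, without settings or strand handling. Per the file headers, the deposited FPKM values are 1 for each genotype at each transcript, with the 2 libraries pooled. Beside them stand the authors' log2 ratio (hsromega66 over control), p-value and q-value for each of 21529 transcripts. Since counts are not part of the values used, depth is unknown, and no count model or test of single libraries could be run.

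A gene's level is the FPKM total of its transcripts, compared as log2(FPKM + 1). Genes were called at a deposited q of at most 0.05. Gene spans, exons and coding lengths came from the Ensembl 115 annotation, which has dm6 coordinates; chromosomes came from the deposited loci. Transcripts were classed as male or female type by their nearest reference transcript. Its annotated exons were used for Sxl and dsx, its coding length for tra and its name for msl-2. No nucleotide or protein sequences were used. The members and lists were chosen with earlier results of these data known. The text names every member, each list's called genes or otherwise its 4 highest by FPKM summed over both genotypes, genes with values that overlap a member, and the neighbours of roX1 and roX2; others were named after their values were seen. With 2 pooled values, no likeness of patterns between genes was computed. The computation of the chromosome medians was checked on simulated data with known shifts; no test was made on the medians themselves. Python 3.11.15, numpy 2.4.6, pandas 2.3.3 and matplotlib 3.10.9 were used.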

Additional observations from a re-analysis of the deposited data

How the results depend on the processing

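The count of called dosage compensation genes was also 0 at a q-value of at most 0.1 and at an unadjusted p-value of at most 0.05. This follows from their lowest q-value of 0.998 and lowest p-value of 0.114 in the authors' deposited Cuffdiff table. A minimum of 5 FPKM per gene can only lower a count, so it could not change a count of 0. Across the 9 genes the median log2 ratio was 0.10 with a pseudocount of 0.1 or when centred on all genes, and 0.14 when both genotypes were rescaled to the same sum. Of 36 alternatives for single genes, 34 kept the direction, but most could not have changed it, so this count does not measure robustness. A change of pseudocount cannot reverse a sign. Centring and rescaling moved each ratio by less than the smallest absolute ratio, 0.090 for msl-2. The most abundant transcript alone could reverse a gene with several listed transcripts, while msl-3 and mof have 1 each. With it the 2 reversals arose: msl-2 was at -0.15 and Sxl at 0.16, since their listed forms lay on both sides of 0. The X minus autosomal median was 0.070 with a pseudocount of 0.1 and 0.072 with genes of at least 5 FPKM. In alternatives chosen after seeing the data it was 0.068, 0.087 and 0.040 in the low, middle and high of 3 classes of genes by mean FPKM. At a minimum of 5 FPKM, the X to autosomal ratio of medians was 0.904 in hsromega66 and 0.859 in control larvae. No paired analysis was possible because each genotype has 1 pooled value, so leaving out a library and the count models were not run. The spread between libraries limits every value here and is not known.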
